A study of Mus musculus with 12 samples.

Results

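The genes described here are 9 regulators of macrophage identity: Spi1, Cebpa, Cebpb, Runx1, Irf8, Gata6, Maf, Klf4 and Csf1r. They were picked by name out of 21887 RefSeq protein-coding genes, and each was followed through the FRA-1 peaks listed in its gene body or within 20 kb on either side, or carrying its symbol in the deposited tables. In ChIP-seq, DNA fragments held by a protein, here FRA-1, are pulled down with an antibody and sequenced, and a peak marks a stretch where these fragments accumulate. The samples were peritoneal macrophages of 8-week-old male or female mice: 3 left unstimulated (UT), 3 given LPS, a bacterial cell wall component that activates TLR4, and 3 given apoptotic cells (AC), alongside 3 pooled input samples that were not used here. The sample records describe a 129/C57Bl6 background and cells drawn out by 4% thioglycollate (2.5 mL, harvested 72 h later), whereas the series' design text names C57Bl/6 mice and lavage without an eliciting agent. Stimulation lasted 1 h, with LPS at 10 µg/mL by the design text and at 1 µg/mL by the records. The records name the same 3 mice in every condition, while the design text counts 9. No mutant allele is named for any of these samples, and the source of the apoptotic cells is not given. The assay measured no transcript, so the macrophage label could not be checked against marker genes.

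FRA-1, encoded by Fosl1, is a FOS family member of the AP-1 transcription factors and binds DNA as a dimer with a JUN protein, typically at TGANTCA. In macrophages, AP-1 occupies enhancers together with lineage-determining factors such as PU.1 and C/EBP proteins, which open the chromatin of the myeloid lineage. PU.1 (Spi1), C/EBPα (Cebpa), RUNX1 and IRF8 act while myeloid cells are specified. C/EBPβ (Cebpb) also takes part in inflammatory transcription, GATA6 maintains the resident macrophages of the peritoneal cavity, c-MAF (Maf) and KLF4 shape mature macrophages and monocytes, and Csf1r is the receptor for the growth factors CSF1 and IL-34.

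RefSeq promoters (GRCm38.p6, from 250 bases before to 50 after a transcription start) were at hand for 5 of the 9 genes, 7 promoters in all. Of these 7, 0 overlapped a FRA-1 peak of any replicate. The share of all promoters that overlap a listed peak was not computed, so this 0 has no background. Of the 7, 0 held the AP-1 letters TGANTCA or TGACGTCA, both of which read the same on either strand. Of all 32851 promoters of this length, 7.81% held TGANTCA and 1.79% held TGACGTCA, so 0 of 7 does not stand apart from these shares. The 250 bases before the start are shown for Cebpb, the gene with peaks in all LPS replicates only, for Irf8, whose second promoter had the closest peak of the 5 genes, and for Klf4, whose shared LPS region lay upstream of this start. Cebpb is read from the plus strand with its start at chr2:167688915, Irf8 from the plus strand at chr8:120738639 (the second of its promoters) and Klf4 from the minus strand at chr4:55532475. All letters are in lower case because capitals were kept for TGANTCA and TGACGTCA, which do not occur.
Cebpb: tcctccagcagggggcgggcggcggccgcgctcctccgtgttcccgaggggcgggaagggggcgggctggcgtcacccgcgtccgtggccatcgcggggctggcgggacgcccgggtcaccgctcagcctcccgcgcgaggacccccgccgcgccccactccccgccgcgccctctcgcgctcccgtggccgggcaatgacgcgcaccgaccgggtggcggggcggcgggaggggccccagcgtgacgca
Irf8: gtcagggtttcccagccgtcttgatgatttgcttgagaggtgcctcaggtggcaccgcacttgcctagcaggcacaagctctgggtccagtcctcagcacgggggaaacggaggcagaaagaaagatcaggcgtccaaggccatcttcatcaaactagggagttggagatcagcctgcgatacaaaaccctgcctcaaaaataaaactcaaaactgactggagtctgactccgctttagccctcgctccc
Klf4: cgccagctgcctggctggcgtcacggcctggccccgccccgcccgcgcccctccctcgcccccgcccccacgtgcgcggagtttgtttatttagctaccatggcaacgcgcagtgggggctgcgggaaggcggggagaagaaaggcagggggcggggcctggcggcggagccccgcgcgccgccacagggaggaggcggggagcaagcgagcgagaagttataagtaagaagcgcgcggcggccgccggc
Spi1, Gata6, Maf and Csf1r had no entry. Across the 41 regions at the 5 genes with a promoter entry, 0 were centred within 1 kb of a start. The share of all regions centred this close to a start was not computed. The closest centre lay 2991 bp downstream of the second Irf8 start, in LPS replicate 1, with a score of 76.13. No result on these letters bears on whether FRA-1 binds there.

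Peaks had been listed for each replicate separately, 20981 to 79474 per replicate, with a score of 50.01 or more. Read numbers were not used here, so the depth behind a listed peak is unknown, and a region without a listed peak may still hold FRA-1 below the threshold of the peak call. Replicates are numbered by the order of their columns, which carry no mouse identity. The smallest peak was 104 to 116 bp wide in 4 replicates (UT 3, LPS 1, LPS 3 and AC 3, called narrow here) and 158 to 172 bp in the other 5 (called wide), so each condition holds both kinds. Narrow replicates had the most peaks of their condition. Each p-value below compares the 3 replicates of one condition with the 3 of another and ignores any pairing by mouse. Peaks bound in fewer cells cannot be told apart from peaks bound less firmly in each cell.

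As among all regions, FRA-1 peaks around the 9 genes were mostly not shared between replicates. In total, 85 peaks in 68 regions (peaks of any replicate that touch or overlap, merged) were found, of which 26 lay inside the gene body. Of these regions, 64 (94.1%) had a peak in 1 of 9 replicates only, against 89.7% of all 300608 regions. The 4 others lay at Gata6 (2), Csf1r (1) and Klf4 (1). Each of the 9 genes had at least 3 regions, so 0 members were without data. The authors' tables assign 6 of the 68 regions to a member, at Cebpa (3), Maf, Csf1r and Klf4 (1 each). At genes such as Spi1, Cebpa, Cebpb, Runx1, Irf8 and Maf, the replicates thus differed in where a peak was listed, whatever their number of peaks.

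In unstimulated macrophages, the 3 replicates had 9, 6 and 6 peaks at the 9 genes. With LPS they had 7, 7 and 15, and with apoptotic cells 8, 10 and 17. The highest total in each stimulated condition belonged to a narrow replicate, and all pairs of conditions overlapped. The 9 windows cover 710.162 kb (median 60.3 kb, against 57.2 kb over all genes). Per Mb of window, 9.86 ± 2.44 peaks were found in unstimulated macrophages, 13.6 ± 6.50 with LPS and 16.4 ± 6.65 with apoptotic cells (SD, n = 3 each). The density over all protein-coding gene windows was 10.1 ± 1.65, 21.3 ± 6.75 and 20.7 ± 10.9 in the same order (SD, n = 3). The density at the 9 genes was above that over all gene windows in UT replicates 1 and 2 (12.7 against 10.3, 8.45 against 8.30). In UT replicate 3 it was below (8.45 against 11.6). It was below in LPS replicates 1 to 3 (9.86 against 19.6, 9.86 against 15.6 and 21.1 against 28.8). With apoptotic cells it was below in replicates 1 and 3 (11.3 against 16.3, 23.9 against 33.0) and above in replicate 2 (14.1 against 12.6). Both values pool windows, so that long windows weigh most, among the 9 genes that of Runx1. In the value over all genes, a peak in overlapping windows of several genes counts once for each. No test was made between the values. Relative to 10000 peaks of the replicate, the 9 genes held 2.84 ± 0.717, 1.89 ± 0.443 and 2.42 ± 0.656 peaks (SD, n = 3).

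**Figure D1:**
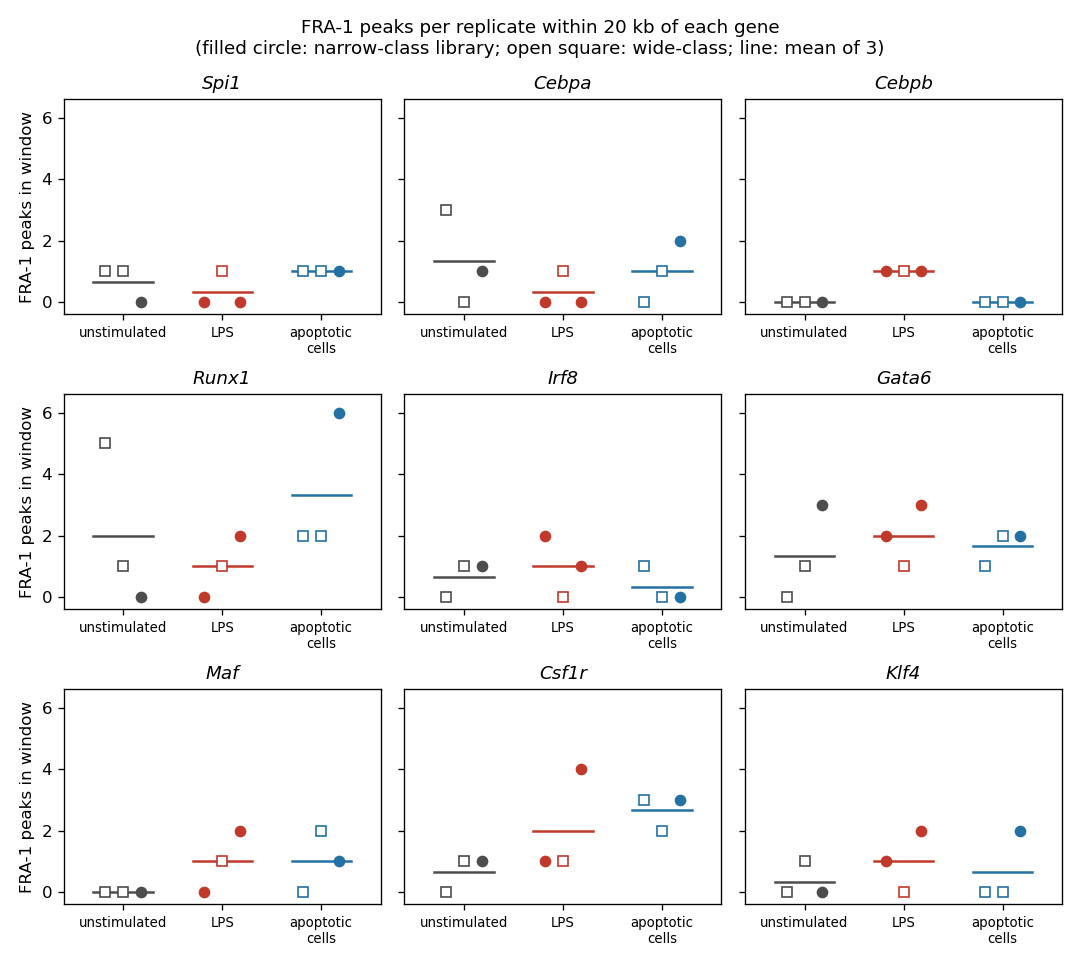
FRA-1 peaks (y axis, number of peaks) within 20 kb of each gene, with a symbol for each of the 3 replicates per condition, filled circles for narrow and open squares for wide replicates, and a line at the mean. Cebpb has 1 peak in every LPS replicate and 0 elsewhere, and Csf1r has 2 to 3 peaks with apoptotic cells against 0 to 1 without stimulation.

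Whether a stimulus changed the number of FRA-1 peaks at a gene was asked gene by gene, calling a gene where the 3 replicates of both conditions did not overlap. Over the genome, unstimulated replicates had 20981 to 28314 peaks. All LPS replicates (39728 to 63010) and all apoptotic cell replicates (31501 to 79474) had more. The calls used unscaled counts, and the part of these totals in them was not tested. Scaled to 10000 peaks of each replicate, the Cebpb calls below were kept and the Csf1r call was lost. For LPS against unstimulated macrophages, 1 of the 9 genes was higher, Cebpb, against 9.87% of all genes, and 0 were lower, against 0.192%. For apoptotic cells against unstimulated macrophages, 1 was higher, Csf1r, against 6.57%, and 0 were lower, against 0.164%. For LPS against apoptotic cells, 1 was higher, again Cebpb, against 1.99%, and 0 were lower, against 1.28%. A count of 1 in 9 (11.1%) is close to the background in the first pair of comparisons and rests on 1 gene in the last. With 3 replicates against 3, the exact permutation test cannot go below p = 0.1 (two-sided), and after Benjamini-Hochberg adjustment over 21887 genes the smallest adjusted p of any gene was 0.98 for LPS against unstimulated macrophages and 1.0 in both other comparisons. No gene therefore passed. The comparisons share their samples and are not independent of each other. The median difference over the 9 genes was 0.667 peaks for LPS minus unstimulated, the same as over all genes (0.667), and 0.333 peaks for apoptotic cells minus unstimulated, against 0.667 over all genes.

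Spi1 encodes PU.1, the master factor of the myeloid lineage, and lies at chr2:91082374-91115759 (GRCm38, as all positions here). It had 1, 1 and 0 peaks in unstimulated macrophages, 0, 1 and 0 with LPS, and 1, 1 and 1 with apoptotic cells. The conditions overlapped (apoptotic cells against LPS, exact permutation p = 0.4, two-sided, n = 3 each). All 6 regions belonged to 1 replicate each. The window also holds the protein-coding genes Slc39a13 and Mybpc3, so peaks outside the Spi1 body cannot be tied to Spi1. The highest score was 173.59, at chr2:91124533-91124710, 8774 bp above the gene, in unstimulated replicate 2 and at the 75.1st percentile of its scores. Inside the gene, AC replicate 3 had a peak at chr2:91085677-91085795 (score 158.85) and LPS replicate 2 at chr2:91085888-91086143 (118.02). These neighbours begin 3.303 and 3.514 kb into the gene and do not touch. AC replicate 1 had its peak further inside, at chr2:91100210-91100389 (169.85).

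Cebpa encodes C/EBPα, needed for granulocyte and monocyte progenitors, at chr7:35119293-35121928 on the plus strand. It had 3, 0 and 1 peaks without stimulation, 0, 1 and 0 with LPS, and 0, 1 and 2 with apoptotic cells. All 3 conditions overlapped, and the mean was 1.33 ± 1.53 without stimulation against 0.333 ± 0.577 with LPS (SD, n = 3; exact permutation p = 0.7, two-sided). Upstream of the gene, 3 peaks of 3 replicates lay close together without overlapping. They ended 4738 bp (AC replicate 2, score 94.43), 3825 bp (UT replicate 3, 150.97) and 3369 bp (AC replicate 3, 128.62) before the gene, and the authors' tables assign them to Cebpa. The highest score, 184.14, was that of unstimulated replicate 1 at chr7:35129307-35129488, 7379 bp beyond the gene. The only LPS peak, of replicate 2, lay at chr7:35135675-35135845 (126.89), 13747 bp beyond it.

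Cebpb encodes C/EBPβ, a factor of macrophage activation, and lies at chr2:167688915-167690432 on the plus strand. The 3 LPS replicates had 1 peak each, while the 3 unstimulated and the 3 apoptotic cell replicates had 0 each. The groups did not overlap in either comparison (exact permutation p = 0.1, two-sided, n = 3, adjusted p = 0.98 against unstimulated and 1.0 against apoptotic cells). The 3 peaks lay at 3 different places, so that 0 positions were shared. LPS replicate 1 had its peak at chr2:167675918-167676028, 12887 bp upstream, with a score of 131.8. That of LPS replicate 3 was at chr2:167681832-167681940, 6975 bp upstream, with a score of 208.17. LPS replicate 2 had a peak 6851 bp beyond the gene, at chr2:167697283-167697721 (score 82.12). Of the 3 scores, 1 was below 100, and with peaks of at least 100 only, LPS replicate 2 had no peak left and the groups overlapped.

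Runx1, a factor of blood cell formation, is the longest of the 9 genes (chr16:92601466-92826074, minus strand) and its window of 264.609 kb is the widest. It had 5, 1 and 0 peaks without stimulation, 0, 1 and 2 with LPS, and 2, 2 and 6 with apoptotic cells. The conditions overlapped in every comparison (exact permutation p = 0.9, 0.5 and 0.3 for LPS against unstimulated, apoptotic cells against unstimulated and LPS against apoptotic cells, two-sided, n = 3). All 19 regions had a peak in 1 replicate only, 14 of them inside the gene. Per 100 kb of window, Runx1 had 7.18 peaks over the 9 replicates, the lowest value of the 9 genes. The highest score was 298.85, at chr16:92794858-92795044 in unstimulated replicate 1, followed by 261.83 at chr16:92752093-92752271 in AC replicate 2 and 242.11 at chr16:92670386-92670575 in LPS replicate 2. These leading peaks of the 3 conditions were at different positions inside the gene, at the 97.9th, 93.3rd and 94.1st percentile of their replicates.

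Irf8, which directs monocytes and dendritic cells, lies at chr8:120736358-120756694 on the plus strand. It had 0, 1 and 1 peaks without stimulation, 2, 0 and 1 with LPS, and 1, 0 and 0 with apoptotic cells, and all conditions overlapped. The strongest peak, with a score of 211.84, was at chr8:120720049-120720223 in AC replicate 1, 16135 bp upstream of the gene. LPS replicate 3 had a peak 13971 bp upstream (136.35). The 4 peaks inside the gene had low scores, from 57.74 (LPS replicate 1) to 99.18 (UT replicate 2), and the median percentile of the 6 Irf8 peaks, 14.7, was the lowest of the 9 genes.

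Gata6, the factor of resident peritoneal macrophages, had the most widely shared FRA-1 region of the 9 genes. The gene lies at chr18:11052510-11085636, and the region at chr18:11059271-11059500 lies inside it, 6761 to 6990 bp from its lower end. A peak was listed in 8 of 9 replicates, all but UT replicate 1. Among all 1042 regions with a peak in 8 replicates, UT replicate 1 was the one without in 43.5%. The scores were 150.95 and 415.76 in UT replicates 2 and 3, 497.0, 119.2 and 470.12 in LPS replicates 1 to 3, and 211.84, 218.24 and 184.35 in AC replicates 1 to 3. UT 3, LPS 1 and LPS 3, all narrow, stood above the other 5 replicates with a peak, and the scores of LPS and apoptotic cell replicates overlapped with those without stimulation. Where all 9 replicates had a peak (1372 regions), the same 3 replicates also had the highest median scores (343, 386 and 399, against 184 to 299 in the others), and the part of this in the Gata6 values was not tested. Peaks in 8 or more replicates were found in 0.803% of all regions, and 8.2% of all genes had such a region in their window.

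A further region was shared at chr18:11034587-11034823, 17687 bp below Gata6, with the noncoding Gata6os in between, 7214 bp away. It had a peak in 5 of 9 replicates, with scores of 220.21 in UT replicate 3, 244.98 and 265.27 in LPS replicates 1 and 3, and 94.43 and 324.95 in AC replicates 2 and 3. These are all 4 narrow replicates and 1 of 5 wide ones. Among all 1892 regions with a peak in 5 replicates, 34.9% held all 4 narrow ones. The part of the peak width in this pattern was not tested. In total, Gata6 had 0, 1 and 3 peaks without stimulation, 2, 1 and 3 with LPS, and 1, 2 and 2 with apoptotic cells, so that all conditions overlapped (LPS against unstimulated, exact permutation p = 0.8, two-sided, n = 3).

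**Figure D2:**
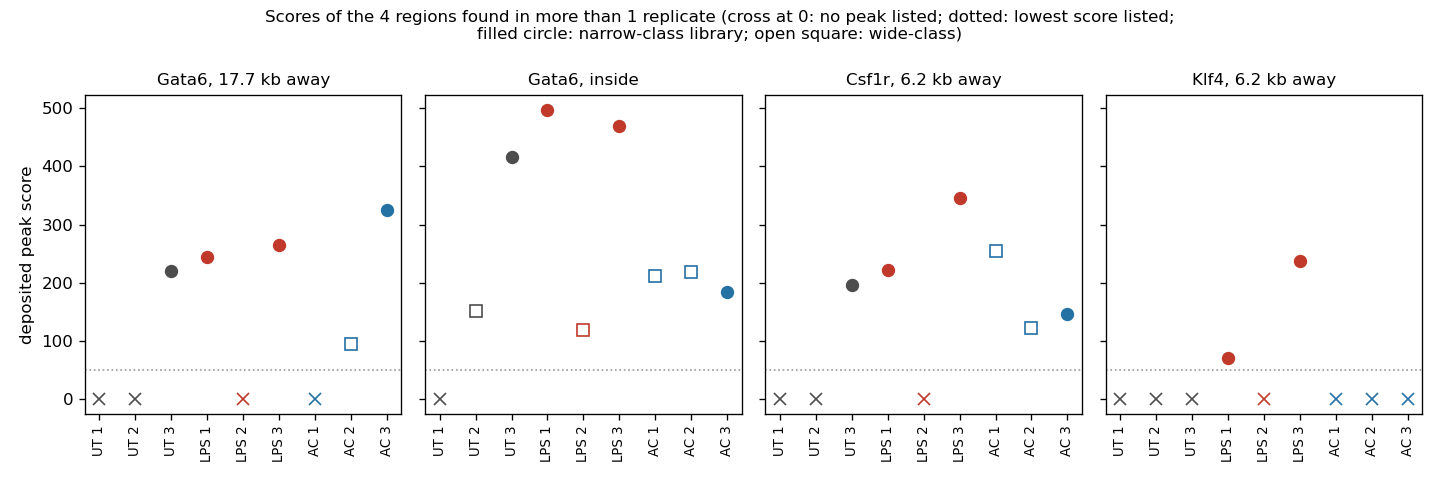
Deposited peak score (y axis) in each of the 9 replicates (x axis) at the 4 regions found in more than 1 replicate, with crosses at 0 for no listed peak, filled circles for narrow and open squares for wide replicates, and a dotted line at the lowest score listed. The region inside Gata6 has scores from 119.2 to 497.0 in 8 replicates, and the Klf4 region has 2 scores, 70.07 and 236.93, both with LPS.

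Maf encodes c-MAF, a factor of mature tissue macrophages, at chr8:115703253-115706894. The unstimulated replicates had 0, 0 and 0 peaks, the LPS replicates 0, 1 and 2, and the apoptotic cell replicates 0, 2 and 1. In both stimulated conditions 2 of 3 replicates were above the unstimulated ones and the other was equal to them (exact permutation p = 0.4 in both, two-sided, n = 3). The 6 regions were found in 1 replicate each. Below the gene, peaks of LPS replicate 3 (chr8:115701395-115701504, score 201.25) and AC replicate 3 (chr8:115701845-115701951, 138.88) lay 1749 and 1302 bp away and did not overlap. Further peaks of LPS replicate 3 and AC replicate 2 lay 12004 and 12283 bp below the gene, at scores of 136.35 and 113.81. The peak that the authors' tables assign to Maf, 2800 bp above the gene, was that of LPS replicate 2 with a score of 97.81.

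Klf4, a factor of monocyte differentiation, lies at chr4:55527137-55532475 on the minus strand. It had 0, 1 and 0 peaks without stimulation, 1, 0 and 2 with LPS, and 0, 0 and 2 with apoptotic cells. The conditions overlapped (LPS against unstimulated, exact permutation p = 0.7, two-sided, n = 3). LPS replicates 1 and 3 shared a region at chr4:55538646-55538949, 6171 bp upstream of the gene and within the noncoding genes Gm12506 and Gm34343. Its scores were 70.07 and 236.93, at the 5.4th and 68.8th percentile of these replicates, and no peak was listed there in LPS replicate 2, without stimulation or with apoptotic cells. The pattern of at least 2 LPS and 0 other replicates held for 2.82% of all regions, most of which have a peak in 1 replicate and cannot show it. Merged over all 9 replicates, 8464 regions had this pattern. Merged over the LPS replicates alone, 22049 regions had a peak in at least 2 of them. The regions are defined differently, so these numbers do not form a share. Both replicates are narrow, and the other 2 narrow replicates (UT 3 and AC 3) had no peak there. AC replicate 3 had the second highest score at Klf4, 223.11 at chr4:55513750-55513858, 13279 bp downstream.

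Csf1r, the receptor on which macrophages depend for survival, lies at chr18:61105572-61131139. It had 0, 1 and 1 peaks without stimulation, 1, 1 and 4 with LPS, and 3, 2 and 3 with apoptotic cells. Every apoptotic cell replicate was above every unstimulated replicate (2.67 ± 0.577 against 0.667 ± 0.577, SD, n = 3, exact permutation p = 0.1, two-sided, adjusted p = 1.0), while the LPS replicates overlapped with both. The narrow replicates of these conditions, 1 each, had 1 and 3 peaks, and the wide ones 0 and 1 against 3 and 2, groups too small for a test. Relative to 10000 peaks of each replicate, the unstimulated and apoptotic cell replicates overlapped.

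Of the Csf1r peaks with apoptotic cells, 3 (1 per replicate) belonged to the shared region at chr18:61137369-61137821, 6230 bp above the gene and inside the neighbouring gene Hmgxb3. A peak was listed in 6 of 9 replicates. The scores were 196.7 in UT replicate 3, 222.56 and 344.84 in LPS replicates 1 and 3, and 255.22, 121.95 and 146.98 in AC replicates 1 to 3. All 4 narrow and 2 of 5 wide replicates had it, the 2 wide ones both with apoptotic cells. Of the 1436 regions with a peak in 6 replicates, 66.4% held all 4 narrow ones. Since it lies inside Hmgxb3, this region cannot be tied to Csf1r. Without it, AC replicate 2 and UT replicate 2 had equal numbers of peaks, so the apoptotic cell and unstimulated replicates overlapped. The remaining 5 peaks with apoptotic cells were at 5 different places, among them chr18:61106892-61107129 (AC replicate 1, score 166.0) and chr18:61121503-61121712 (AC replicate 2, 196.52) inside the gene. With the shared region included, Csf1r had the highest peak density of the 9 genes, 24.4 peaks per 100 kb over the 9 replicates, followed by Gata6 with 20.5.

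**Figure D3:**
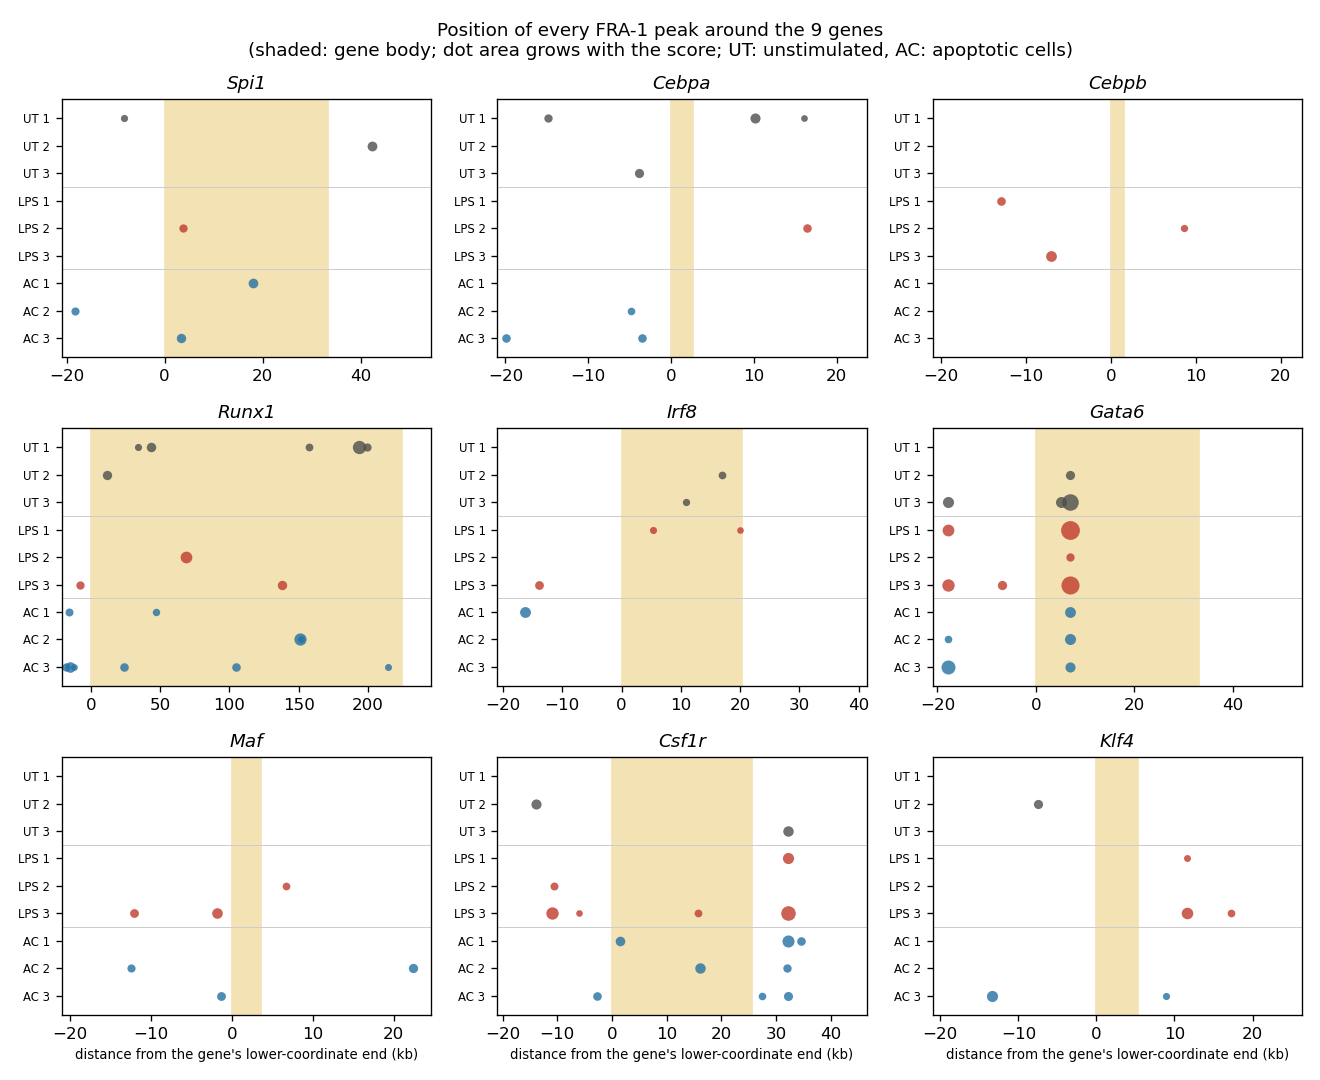
Positions of all 85 peaks around the 9 genes, with the distance from the lower-coordinate end of the gene in kb on the x axis, the replicates on the y axis, the gene body shaded and the dot area growing with the score. Vertical rows of dots, that is, peaks of several replicates at the same place, are seen at Gata6 (8 and 5 replicates), Csf1r (6) and Klf4 (2), while the 3 Cebpb peaks are at 3 places.

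Regions that recurred within a condition, with a peak in at least 2 of its 3 replicates, followed the same genes. Without stimulation, 1 of 20 regions at the 9 genes recurred (5.0%, against 6.06% of all regions), the one inside Gata6. With LPS, 4 of 24 did (16.7%, against 18.0%), at Gata6, Csf1r and Klf4, and all 4 had a peak in LPS replicates 1 and 3. With apoptotic cells, 3 of 30 did (10.0%, against 5.94%), at Gata6 and Csf1r. The members' shares were thus near the background in unstimulated and LPS-stimulated macrophages, and with apoptotic cells rested on 3 regions. Only LPS has 2 narrow replicates, 1 and 3, against 1 in each other condition. The part of this in the numbers of recurrent regions was not tested. Of the 9 genes, 1, 3 and 2 had a recurrent region in unstimulated, LPS and apoptotic cell samples, against 13.6%, 48.7% and 24.4% of all genes. Peaks of the 4 shared regions had a median percentile of 84.4 (n = 21 peaks) among the scores of their replicates, and peaks found in 1 replicate had 43.6 (n = 64). Over all regions these medians were 69.6 and 41.5.

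Sharing by 4 or more of 9 replicates was found for regions at 2 of the 9 genes, Gata6 and Csf1r (22.2%), against 27.9% of all genes. At least 2 replicates shared a region at 3 of 9 (33.3%), against 58.5%. Among 38 other macrophage regulators, 24 had a region in at least 2 and 10 in at least 4 replicates, and among 24 regulators of other lineages, 13 and 3 did. The number of peaks was higher with LPS than without stimulation, with no overlap, at 4 of the 38 (10.5%) and 5 of the 24 (20.8%). Examples were Elf1, an ETS factor (0, 0 and 3 peaks without stimulation, 6, 7 and 7 with LPS), and Ebf1, a factor of B cells (2, 2 and 4 against 6, 7 and 9). With apoptotic cells, Elf1 had 3, 2 and 1 peaks, while Ebf1 had 7, 6 and 17 and was also above unstimulated macrophages. The background over all genes was 9.87% there. Apoptotic cell replicates were above unstimulated ones at 3 of the 38 (7.89%) and 3 of the 24 (12.5%), against 6.57% of all genes. LPS replicates were above apoptotic cell replicates at 3 of the 38 (7.89%, against 1.99%), with 1 below (2.63%, against 1.28%), and at 0 of the 24, where the smallest exact permutation p was 0.3 (two-sided). No gene of either list passed after adjustment over all genes.

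**Figure D4:**
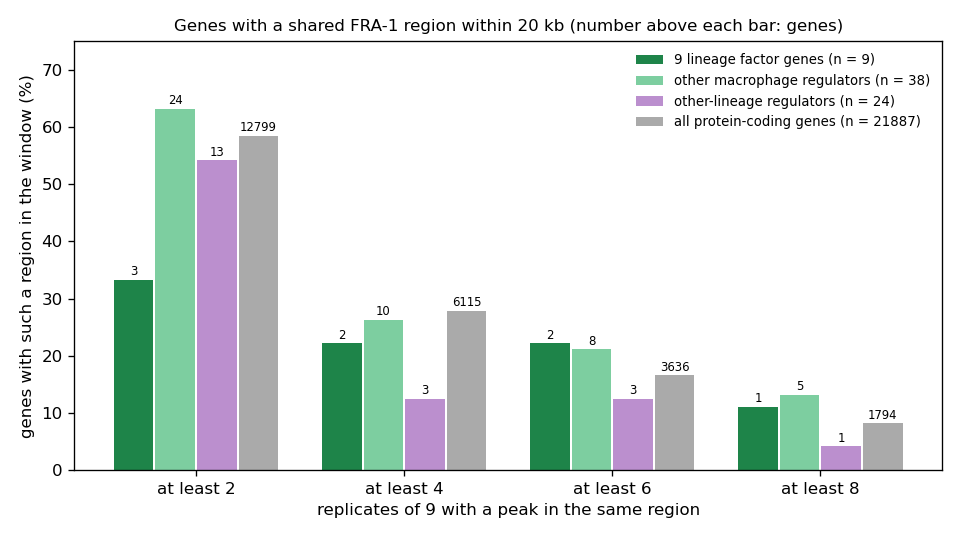
Share of genes (y axis, %) with a region in their window that has a peak in at least 2, 4, 6 or 8 of the 9 replicates (x axis), for the 9 genes, 38 other macrophage regulators, 24 other-lineage regulators and all 21887 protein-coding genes, with the number of genes above each bar. The 9 genes stand at 33.3, 22.2, 22.2 and 11.1%, against 58.5, 27.9, 16.6 and 8.2% of all genes, and no test was made between the bars.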

How the data were processed

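FRA-1 ChIP-seq of 9 macrophage samples (3 per condition) was read from 3 peak tables, 1 per condition. The values are the peak scores deposited by the authors, with -1 for no peak, listed per replicate for each genomic segment. Per the submitters' processing notes, reads were mapped with BWA 0.7.14 to mm10 (GRCm38) and bedtools was used. The peak caller and the computation of the score are not given in the sources used here, and no header names them. Replicate columns carry no mouse identity, and 0 value columns were left unmapped. The genes' positions and promoters came from RefSeq tables of GRCm38.p6, which hold no exons.

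Neighbouring segments of equal score in a replicate were joined to form its peaks, and peaks of all replicates overlapping or touching were merged into regions (minimum overlap 1 bp). Peaks were assigned to a gene by its body plus 20 kb or by the authors' symbol. For every protein-coding gene, peak numbers of 2 conditions were compared by an exact two-sided permutation test over replicates with Benjamini-Hochberg adjustment over all genes. A percentile is the rank of a score among the peaks of its replicate. All 9 genes were named. Regions were described where they had a peak in at least 4 replicates, in at least 2 of one condition and 0 of another, or the highest score of their gene in a condition, and up to 4 examples per comparison list were allowed, by the size of the LPS effect. The genes and lists were chosen with earlier results of these data known. Alternatives were other windows, score minimums, equal numbers of peaks, scaling by peak number and leaving out replicates. The steps were tested on simulated data. Scripts ran under Python 3.11.15 with pandas 2.3.3 and numpy 2.4.6 for tables, scipy 1.17.1 for tests and matplotlib 3.10.9 for figures. Intervals from counting were not computed, since read depth is unknown. The input samples were not used.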

Additional observations from a re-analysis of the deposited data

How the results depend on the processing

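Calls of single genes depended on the window and the score. LPS exceeded both unstimulated and apoptotic cell replicates at 1 gene, and at 0 genes with a window of 5 kb, with the authors' gene column alone, with scores of at least 100, with scores above the replicate's median, or with the 20981 highest-scoring peaks of every replicate. With 50 kb the LPS call against unstimulated macrophages was Irf8 in place of Cebpb. Apoptotic cells exceeded unstimulated replicates at 1 gene, and at 0 with 50 kb, the gene column alone, scores above the median, equal numbers of peaks or scaling to 10000 peaks. Leaving out 1 replicate at a time gave 1 to 2 genes for LPS above unstimulated (Maf added without LPS replicate 1), 1 to 2 for apoptotic cells above unstimulated (Runx1 added without UT replicate 1, Maf without AC replicate 1) and 1 to 1 for LPS above apoptotic cells. With a replicate left out, 2 replicates meet 3, so a call can be gained but never lost. These ranges therefore do not measure how stable a call is. Recurrent LPS regions numbered 4, with 1 at 5 kb, 7 at 50 kb, 0 by gene column and 1 to 4 on leaving out a replicate (1 without LPS replicate 1 or 3). Those with apoptotic cells numbered 3, with 1 at 5 kb, 0 by gene column and 2 to 3 on leaving out a replicate. Those without stimulation numbered 1, with 2 at 50 kb, 0 by gene column and 0 to 1 on leaving out a replicate (0 without UT replicate 2 or 3). On leaving out a replicate, a region had to have a peak in both replicates left, a stricter rule than 2 of 3. Fewer regions enter with a smaller window or by gene column, and otherwise the cause was not tested. Among the differences of mean peaks of single genes under these settings, 273 kept sign and side of the threshold, and 85 kept the side with a difference of 0 in either of the values compared. A call was lost in 16 and gained in 8, and 29 changed sign, 0 of them called. Among those gained, LPS was below apoptotic cells by mean differences of -1.0 at Spi1 without LPS replicate 2, of -1.67 at Csf1r and -2.83 at Runx1 without LPS replicate 3, and at Runx1 also on scaling to 10000 peaks. Signs changed for LPS minus apoptotic cells at Cebpa (0.333 with equal numbers), Irf8 (-0.667 at 50 kb, -0.333 above the median and with equal numbers) and Klf4 (-0.333 at 5 kb and by gene column). For LPS minus unstimulated they changed at Spi1 (0.333 at 5 kb), Irf8 (-0.333 with equal numbers, -0.079 per 10000 peaks) and Gata6 (-0.125 per 10000). For apoptotic cells minus unstimulated they changed at Cebpa (0.333 at 5 kb and by gene column), Irf8 (1.67 at 50 kb, 0.333 at scores of at least 100 and above the median, 9.68 in summed score) and Runx1 (-1.0 with equal numbers), and per 10000 peaks at Spi1 (-0.061), Runx1 (-0.19), Gata6 (-0.135) and Klf4 (-0.075). Leaving out 1 replicate at a time gave ranges across 0 for LPS minus unstimulated at Runx1 (-2.0 to 0.5, above 0 without UT replicate 1) and Irf8 (-0.167 to 0.833). For LPS minus apoptotic cells, such ranges were found at Maf (-0.5 to 0.5), Gata6 (-0.167 to 0.833) and Klf4 (-0.167 to 1.0). For apoptotic cells minus unstimulated, they were found at Cebpa (-1.0 to 0.5), Gata6 (-0.333 to 1.17) and Klf4 (-0.333 to 0.667). The values of narrow and wide replicates taken apart were chosen after seeing the data. No paired analysis was possible because nothing ties a column of scores to a mouse.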

Other observations

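Beyond the 20 kb windows, the nearest region with a peak in at least 4 of 9 replicates was looked up for the genes without it, a step chosen after seeing the data. For Spi1 it had a peak in all 9 replicates and lay 52.8 kb above the gene, at chr2:91168553-91169041 inside Madd. For Irf8 it was also found in 9 of 9, 97.6 kb below the gene at chr8:120638467-120638769, inside Gm27021. For Cebpa, a region in 5 of 9 replicates (1 UT, 2 LPS, 2 AC) lay 21.1 kb above the gene at chr7:35143042-35143325, just outside the window. That of Cebpb was found in 5 of 9 replicates (2 UT, 2 LPS, 1 AC), 46.2 kb below the gene at chr2:167642562-167642727 inside Gm31852. For Maf, Runx1 and Klf4 the nearest such regions, in 8, 6 and 4 of 9 replicates, were 346, 359 and 187 kb away. That of Klf4 had peaks in 2 LPS and 2 AC replicates and 0 without stimulation. None of these distances assigns a region to a gene.

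Scores took a limited set of values, so equal scores need not mark equal peaks. The 150.95 of UT replicate 2 inside Gata6 and at Klf4 was shared by 2785 peaks of that replicate.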
